A study of Homo sapiens with 56 samples.

Results

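A set of 35 published target genes of the tumour suppressor p53 was followed in 4 cell lines of cutaneous T cell lymphoma, a cancer of skin-homing T cells. The genes were taken as a list, and 32 of the 35 had a probe set on the array that carried their symbol alone, out of 19775 genes with such a probe set. For FDXR, BTG2 and TRIM22P1 no such probe set was found and they are not analysed here.

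The lines were HuT102, MJ, MyLa and HuT78, each an established human line that stands for 1 tumour. HuT102 and MJ carry the retrovirus HTLV-1, which was not measured here. Cells were grown with cobomarsen, also called MRG-106, an inhibitor of the microRNA miR-155, or were left untreated. Samples were taken at day 8 from every line, and at day 4 from all but HuT78. This made 14 groups with 4 arrays apiece, 56 in total. The concentration is not given in the labels. The cultures were split after 96 hours by the dilution that brought untreated cells back to their seeding density, also for treated cultures. No arrays of a control oligonucleotide were used here, and what any oligonucleotide would do and what miR-155 inhibition does cannot be told apart. Whether replicate arrays stem from separate cultures is not stated, and p-values rest on the spread among arrays, which may be technical.

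p53 is a transcription factor that is held low by MDM2, a ubiquitin ligase and itself a p53 target, so that the pair form a feedback loop. When stress releases p53 it switches on genes that stop the cell cycle, repair DNA, adjust metabolism and, with strong or lasting stress, lead to cell death. Many of these genes hold 1 or more copies of a p53 response element, a pair of inverted repeats. miR-155 is abundant in activated lymphocytes and in many lymphomas, and TP53INP1 is among its published targets.

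The agent's target is shown first, with its seed, bases 2 to 8, in capitals. The 3 promoter stretches below are those of members whose promoter holds a p53 response element with at most 2 mismatches in 20 positions, and the element is in capitals. Sequences are from RefSeq on GRCh38.p14, and all lie on the plus strand.
hsa-miR-155-5p, chr21:25573983-25574006: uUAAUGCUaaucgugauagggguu
DDB2, chr11:47214949-47215023: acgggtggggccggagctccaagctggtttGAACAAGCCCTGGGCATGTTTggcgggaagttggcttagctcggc
AEN, chr15:88621276-88621355: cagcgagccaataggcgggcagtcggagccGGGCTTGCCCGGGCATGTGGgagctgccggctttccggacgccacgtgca
MDM2, chr12:68808893-68808972: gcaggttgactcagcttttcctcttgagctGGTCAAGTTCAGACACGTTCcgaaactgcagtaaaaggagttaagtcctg

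The DDB2 element matched at all 20 positions around a spacer of 1 base. The AEN and MDM2 elements each had 2 mismatches and no spacer. The window ran from 250 bases before to 50 bases after each annotated start. The general pattern searched for reads the same on both strands, which the printed stretches themselves do not. Promoter sequence was at hand for 27 members, and 3 of them, or 11.1%, held an element with at most 2 mismatches, against 184 of 27305 genes, or 0.674%. At up to 3 mismatches, GDF15, RPS27L, SESN1 and FDXR also had a match, 7 of 27 members against 2.91% of all genes. A match describes these letters only, and p53 elements can also lie outside this window, as the element of CDKN1A is known to do.

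Array values are MAS5 signals, a linear brightness that the software scaled to the same trimmed mean on every array. Correlations between arrays of a group were 0.957 to 0.980, and no arrays were identical. Changes are on the log2(signal + 16) scale with their standard errors, from limma over all genes, and a gene was called at a Benjamini-Hochberg adjusted p under 0.05. A gene was tested where the mean over the arrays compared reached a signal of 74.0, the median of all values. The upper quartile of the signals was higher with cobomarsen in HuT102 at day 8 (439 to 466 on cobomarsen arrays, 419 to 429 on untreated arrays) and in MJ at day 8 (446 to 454 on cobomarsen arrays, 425 to 437 on untreated arrays) and day 4 (430.4 to 444 on cobomarsen arrays, 399.6 to 430.02 on untreated arrays), with no overlap. In HuT78 at day 8 the median log2 value of genes above the filter was 9.49 to 9.67 on cobomarsen arrays and 9.63 to 9.70 on untreated arrays, with overlap. The part of these differences in the results was not tested. Defining T cell genes were at or above the filter in 8 of 9 cases in HuT102 and MJ, where CD7 was below it, and in 8 of 9 in HuT78, where CD2 was below it. In MyLa 5 of 9 were, with CD4, CD5, CD7 and LCK below the filter. Of markers of other cell types, the B cell genes CD79A and CD22 were at or above it in all 4 lines and MS4A1 in HuT78 alone. The myeloid genes CD14 and LYZ were below it in all 4 lines, and CSF1R was at or above it in HuT102, MJ and MyLa. The epithelial gene KRT8 was at or above it in all 4 lines and EPCAM in HuT78 alone, where the summed epithelial signal was 7976 to 10443 per array, against 91.2 to 313 in the other lines, and KRT5 and KRT14 were below it in all. Of the fibroblast genes, DCN was at or above it in HuT102, MJ and MyLa and COL3A1 in MJ and MyLa, with LUM and PDGFRB below it in all. The part of these genes in the results was not tested. Sample titles carry 2 blocks of numbers, 1 for HuT102 and MJ and 1 for MyLa and HuT78, so that block and line pair cannot be told apart.

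Without treatment, the p53 targets stood lowest in HuT78. At day 8, 26 of 27 members tested were higher in HuT102 than in HuT78 and 1 was lower (median log2 difference 1.70), where 33.9% of all genes tested were higher and 39.7% lower, 73.7% in all. Of 27 tested in MJ against HuT78, 23 were higher and 1 lower (median 1.40, with 35.1% of all genes higher and 34.0% lower, 69.1% in all). Of 26 tested in MyLa against HuT78, 23 were higher and none lower (median 1.67, with 35.5% of all genes higher and 39.3% lower, 74.8% in all). The 3 comparisons share the HuT78 arrays. By mean signal, HuT78 had the lowest level of 23 of the 27 members tested across the lines, and it had the lowest level of 31.8% of all genes. HuT102 had the highest level of 12 members, MyLa of 11, MJ of 4 and HuT78 of none, where over all genes the shares were 21.7% in HuT102, 26.5% in MyLa, 20.9% in MJ and 30.9% in HuT78.

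CDKN1A (chr6:36676463-36687332), which encodes the cyclin-dependent kinase inhibitor p21, had signals of 11512, 10400.2, 10714 and 11239 on the untreated HuT102 arrays of day 8. It had 6658, 6024, 6215 and 7055 in MJ and 9871, 9006, 11265 and 10105 in MyLa. In HuT78 it had 252, 237, 263 and 304, far below the other lines, and the HuT78 mean was 2.41% of that of HuT102, the highest line. Its log2 difference from HuT78 was 5.30 ± 0.08 for HuT102, 4.54 ± 0.08 for MJ and 5.17 ± 0.08 for MyLa. HuT102 and MyLa, neighbours in that order, did not pass the test of their difference.

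GADD45A (chr1:67685201-67688334), a stress-induced inhibitor of growth, had untreated day 8 means of 7987 ± 519 in HuT102, 7003 ± 336 in MJ and 7848 ± 485 in MyLa (SD, n = 4 each). It had signals of 201, 204, 222 and 192 in HuT78, whose mean stood at 2.57% of the highest line. DRAM1, a lysosomal membrane protein of autophagy, stood in HuT78 at 4.35% of the highest line and RRM2B, the p53-inducible subunit of ribonucleotide reductase, at 8.08%. DRAM1 averaged 3466 ± 91.3 in MJ and 151 ± 14.9 in HuT78. RRM2B (chr8:102204501-102238961) averaged 2334 ± 311 in MyLa and 189 ± 13.3 in HuT78. The HuT78 means of these 4 genes were still above the filter.

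Not every target was low in HuT78. SESN1 (chr6:108984309-109094846), a sestrin that restrains mTOR signalling, was the member lower in HuT102 than in HuT78, with means of 519 ± 51.9 in HuT102 and 1205 ± 74.0 in HuT78 (log2 difference -1.19 ± 0.09, limma adjusted p = 6.96e-17). TNFRSF10D, a decoy receptor for the death ligand TRAIL, was the member lower in MJ, with 43.0, 28.3, 45.7 and 6.52 in MJ and 163, 208, 233 and 154 in HuT78. Its MJ mean of 30.9 was below the filter, and it was tested only through the HuT78 arrays. The filter thus fixed the direction of its call. Genes below the filter in 1 line of a pair could enter the other counts between lines in the same way. The translesion polymerase POLH ranked in the order HuT102, MJ, HuT78, MyLa with no neighbours that differed. Levels of CCNG1, the cyclin G1 gene, averaged 22978 ± 2244 in MyLa, where it was highest, and 4496 ± 393 in HuT78.

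Among the other 3 lines the members were split. HuT102 against MJ had 15 of 30 members higher and 7 lower (57.5% of all genes called, 24.4% higher and 33.1% lower). HuT102 against MyLa had 11 of 27 higher and 11 lower (68.9% of all genes called, 33.4% higher and 35.6% lower). MJ against MyLa had 6 of 27 higher and 14 lower (65.3% of all genes called, 35.1% higher and 30.2% lower). The shares of members called, 73.3%, 81.5% and 74.1%, were each above those of all genes, and that difference was not tested. The plot of untreated levels shows the HuT78 points at the left of most rows.

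**Figure D1:**
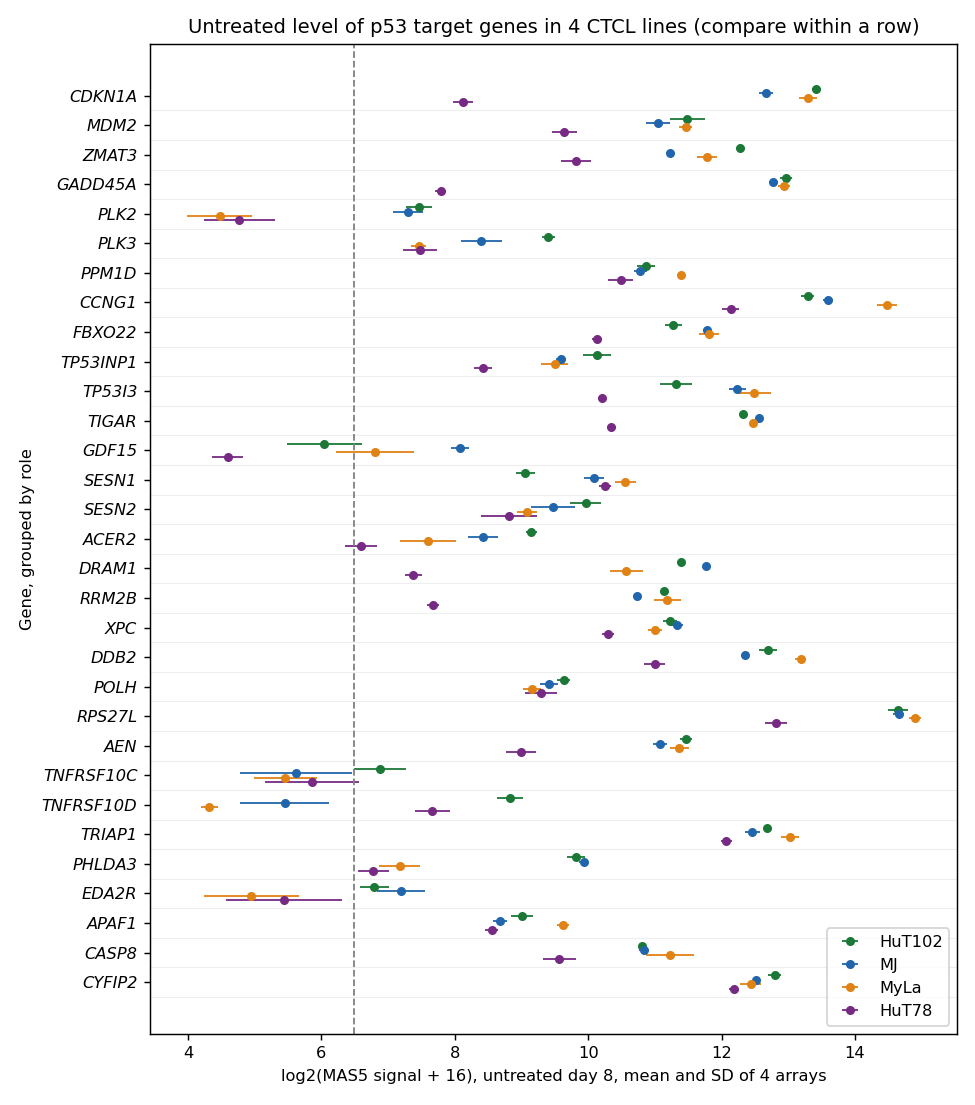
Untreated day 8 level of 31 p53 target genes, 1 gene a row and grouped by role, as log2(MAS5 signal + 16) with points for the mean and bars for the SD of 4 arrays in each of 4 lines. The dashed line is the filter at a signal of 74.0. The HuT78 points are the lowest of the 4 lines in most rows, and levels are comparable within a row only.

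With cobomarsen, the members called were mostly lower in MJ and MyLa and, at day 8, more often higher than lower in HuT102. In these bulk cultures a change in every cell and a change in the share of cells that express a gene cannot be told apart. In MJ at day 8, 18 of 29 members tested were lower and 2 higher, with 33.6% of all genes called (18.6% lower, 15.1% higher). At day 4 in that line, 14 of 29 were lower and 3 higher, with 27.2% of all genes called (14.2% lower, 13.0% higher). In MyLa at day 8, 17 of 26 were lower and none higher by limma, nor at an unadjusted p under 0.05, with 41.7% of all genes called (18.3% lower, 23.5% higher). At day 4 in MyLa, 15 of 26 were lower and none higher by limma (2 higher at an unadjusted p under 0.05), with 26.3% of all genes called (12.9% lower, 13.4% higher).

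In HuT102 at day 8, 11 of 31 members were higher and 4 lower, with 40.1% of all genes called (19.0% higher, 21.2% lower). In HuT102 at day 4, 5 of 30 were higher and 6 lower, with 23.0% of all genes called (10.0% higher, 13.0% lower), and with the arrays set to an equal median 5 were higher and 4 lower. The median log2 change of the members tested was -0.51 in MJ at day 8, -0.48 in MyLa at day 8 and 0.17 in HuT102 at day 8, beside -0.02, 0.02 and -0.00 for all genes tested. At day 4 it was -0.41 in MJ, -0.36 in MyLa and 0.03 in HuT102, beside 0.00, 0.00 and -0.03. In HuT78 at day 8, 4 of 26 were higher and 8 lower, with 22.0% of all genes called (10.7% higher, 11.4% lower). The HuT78 median log2 change was -0.13 for members and -0.05 for all genes tested. That split depended on scaling: more members were higher than lower under quantile normalization and with the arrays set to an equal median. Fitted on the HuT78 arrays alone, none of the 26 passed by limma, a limit on every HuT78 call of a member named below.

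**Figure D2:**
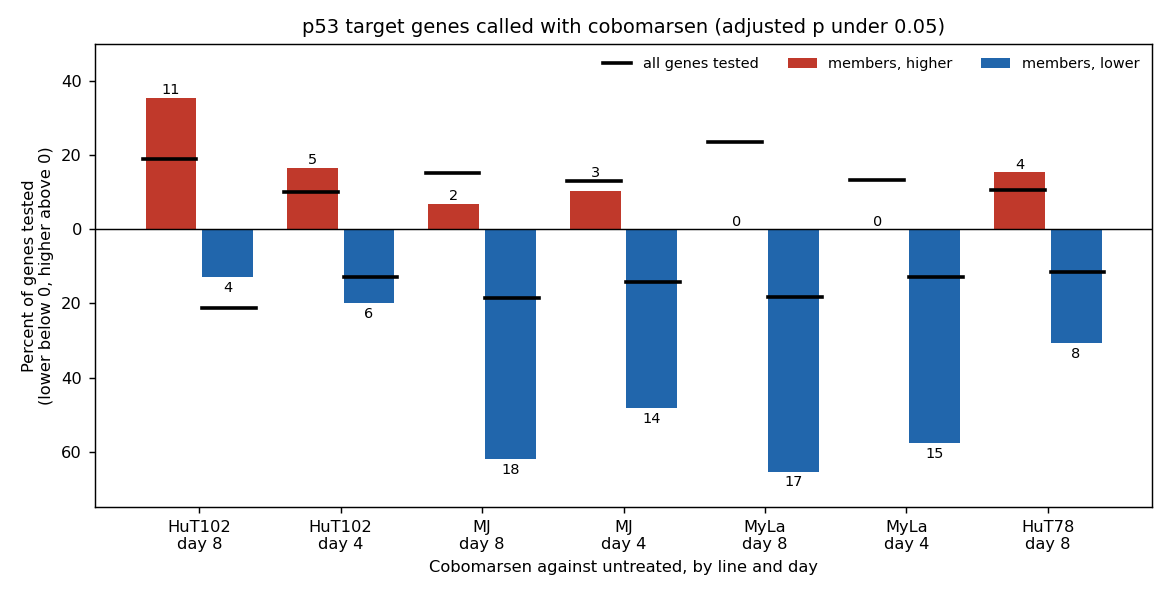
Percent of the p53 target genes tested that were called higher (red, above 0) or lower (blue, below 0) with cobomarsen in each line and day, with the number of members at each bar. Black lines are the same percents over all genes tested. The bars below 0 pass the black line in MJ and MyLa at both days, and in HuT102 at day 8 the bar above 0 passes it. Both bars also pass their lines in HuT78 and in HuT102 at day 4, while the bars above 0 in MJ and MyLa and the bar below 0 in HuT102 at day 8 do not. The split of the HuT78 bars depended on how the arrays were scaled.

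SPATA18, whose protein acts in mitochondrial quality control, was below the filter in all 7 comparisons. TNFRSF10C, another TRAIL decoy receptor, was tested in 1 comparison and TNFRSF10D in 3. GDF15, PLK2 and EDA2R were tested in 4 and ACER2 in 6, and the other 25 members in all 7. At day 8, GDF15 in HuT102 and MJ and PLK2 in MJ were tested only through their higher group. The filter fixed the direction of those calls, which the counts above include.

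**Figure D3:**
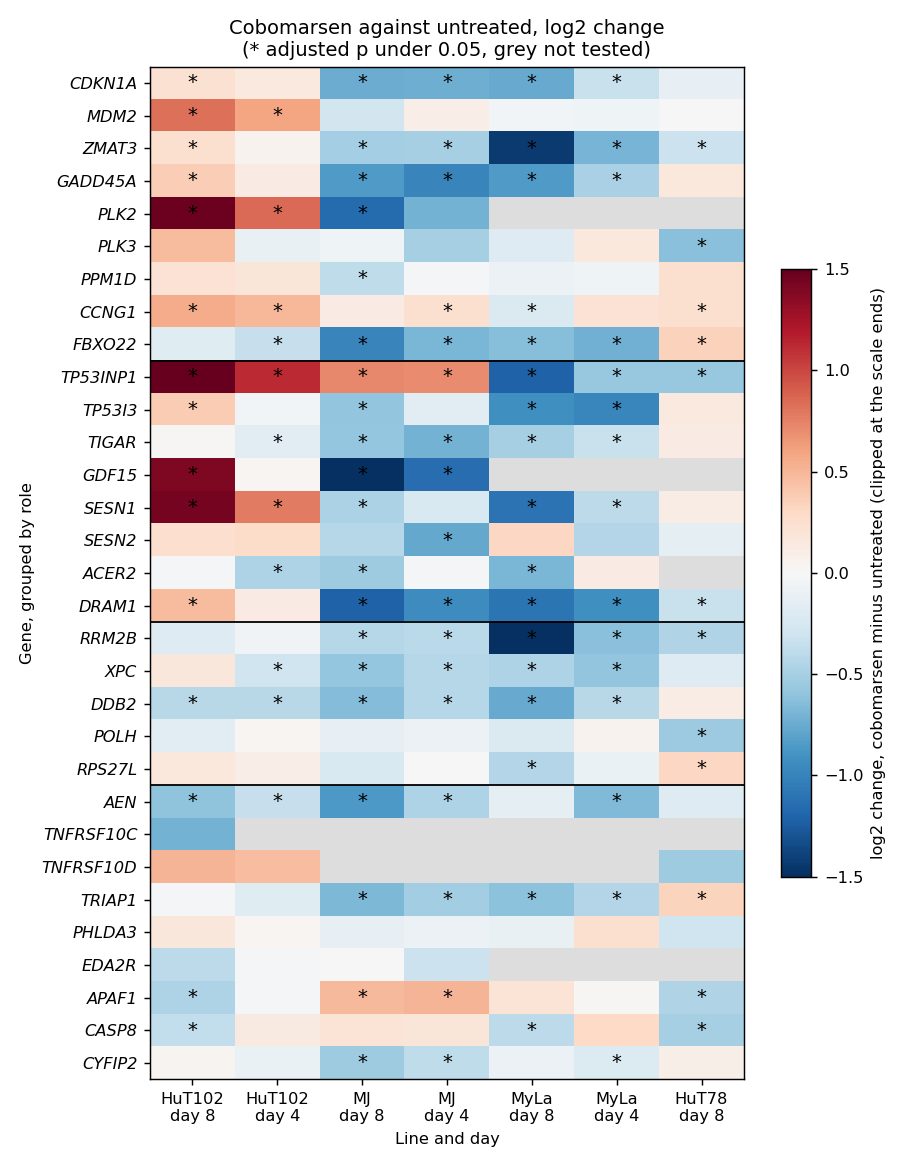
Log2 change with cobomarsen, cobomarsen minus untreated, for 31 p53 target genes in rows by role (arrest and feedback, metabolism and stress, repair, cell death, parted by lines) in 7 comparisons in columns. Red is higher and blue lower with cobomarsen, stars mark an adjusted p under 0.05, and grey cells were not tested. Most starred cells in the MJ and MyLa columns are blue, and most in the HuT102 day 8 column are red.

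The arrest genes are taken first. At day 8 CDKN1A had signals of 12380.3, 12904, 13236 and 12689 on cobomarsen arrays of HuT102, against 11512, 10400.2, 10714 and 11239 on untreated arrays. All 4 treated arrays were above all 4 untreated arrays, by a small margin (log2 change 0.22 ± 0.08, limma adjusted p = 0.019). In MyLa it had 5802, 5921, 5901 and 6044 with cobomarsen, against 9871, 9006, 11265 and 10105 without. Here every treated array was below every untreated array (-0.76 ± 0.08, limma adjusted p = 1.97e-11). In MJ the means were 3875 ± 309 with cobomarsen and 6488 ± 462 without (SD, n = 4 each), again with no overlap. In HuT78, where it was scarce, it had 314, 214, 213 and 232 with cobomarsen and 252, 237, 263 and 304 without. The HuT78 groups overlapped and the change of -0.12 ± 0.08 did not pass.

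GADD45A showed the same split of lines. At day 8 it had 10660.5, 10871, 10575 and 9084 with cobomarsen in HuT102, against 8663, 7529, 8123 and 7635 without. The groups did not overlap (0.36 ± 0.08, limma adjusted p = 0.000266). In MJ it had 3984, 3762, 4072 and 3683 with cobomarsen, against 6583, 7404, 6983 and 7042 without, a 1.80-fold lower mean signal. In MyLa it had 4345, 3945, 4452 and 4645 with cobomarsen, against 8079.8, 7124, 8159 and 8029 without, 1.80-fold lower. The treated arrays of both lines were all below the untreated ones.

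ZMAT3, an RNA-binding protein that acts on p53 target transcripts, averaged 5839 ± 471 with cobomarsen and 4934 ± 97.9 without in HuT102 at day 8 (0.24 ± 0.09). In MJ its change was -0.51 ± 0.09. In MyLa it had signals of 1297, 1222, 1336 and 1275 with cobomarsen, against 3889, 3204, 3207 and 3741 without, 2.71-fold lower. No treated MyLa array came near an untreated one.

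MDM2 (chr12:68808172-68850686), the ligase that holds p53 low, was called in HuT102 alone among the lines on the probe set used. At day 8 it had 4917, 4233, 5313 and 5951 with cobomarsen in HuT102, against 2293, 3551, 2996 and 2695 without (0.83 ± 0.12, limma adjusted p = 8.11e-08). At day 4 it had 5030.4, 4588, 4719 and 4446 with cobomarsen, against 3137, 3249, 2759 and 3357 without (0.59 ± 0.12). On both days all treated arrays were above all untreated arrays. In MyLa at day 8 the means were 2732 ± 263 with cobomarsen and 2805 ± 189 without, and the groups overlapped. The difference of the day 8 effects, HuT102 minus MyLa, was 0.87 ± 0.17 (limma adjusted p = 3.2e-05), and HuT102 minus MJ it was 1.11 ± 0.17 (6.02e-07). MDM2 had 10 probe sets, and 1 of the others was higher with cobomarsen in MJ and MyLa as well, with day 8 changes of 0.66 and 0.80 beside 2.51 in HuT102.

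PPM1D, a phosphatase that also turns p53 signalling down, was called once on the probe set used, lower in MJ at day 8 (-0.38 ± 0.10). Another of its probe sets was higher in HuT102, by 1.02 at day 8 and 1.47 at day 4. These probe sets of PPM1D therefore gave different calls in HuT102. CCNG1, which encodes a cyclin that works with a phosphatase in p53 feedback, was higher in HuT102 at both days, with 14739, 14486, 16025 and 13804 with cobomarsen at day 8, against 10415, 9222, 9811 and 10749 without (0.55 ± 0.08). It was higher in MJ at day 4 (0.24 ± 0.08) and in HuT78 (0.24 ± 0.08), and lower in MyLa at day 8 (-0.22 ± 0.08), with overlapping groups in HuT78 and MyLa.

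PLK2, a stress-responsive polo-like kinase, was scarce. It had 468, 433, 482 and 518 with cobomarsen in HuT102 at day 8, against 142, 181, 183 and 141 without, with no overlap (1.47 ± 0.29). MJ at day 8 had 51.7, 77.6, 45.2 and 49.0 with cobomarsen, against 148, 133, 116 and 176 without, also apart, and there the treated mean was below the filter. In MJ at day 8 PLK2 was tested only through the untreated arrays, so the filter fixed the direction of that call. In MyLa and HuT78 PLK2 was below the filter and not tested. Its relative PLK3 was called in HuT78 alone, at -0.63 ± 0.20, with overlapping groups. FBXO22, a subunit of a ubiquitin ligase, was lower in MJ (-0.99 ± 0.09 at day 8 and -0.69 ± 0.09 at day 4) and in MyLa (-0.64 ± 0.09 and -0.72 ± 0.09), and lower in HuT102 at day 4 (-0.34 ± 0.09). It was higher in HuT78 (0.34 ± 0.09) on the probe set used. With the mean of its 5 probe sets the sign of the HuT78 change turned.

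**Figure D4:**
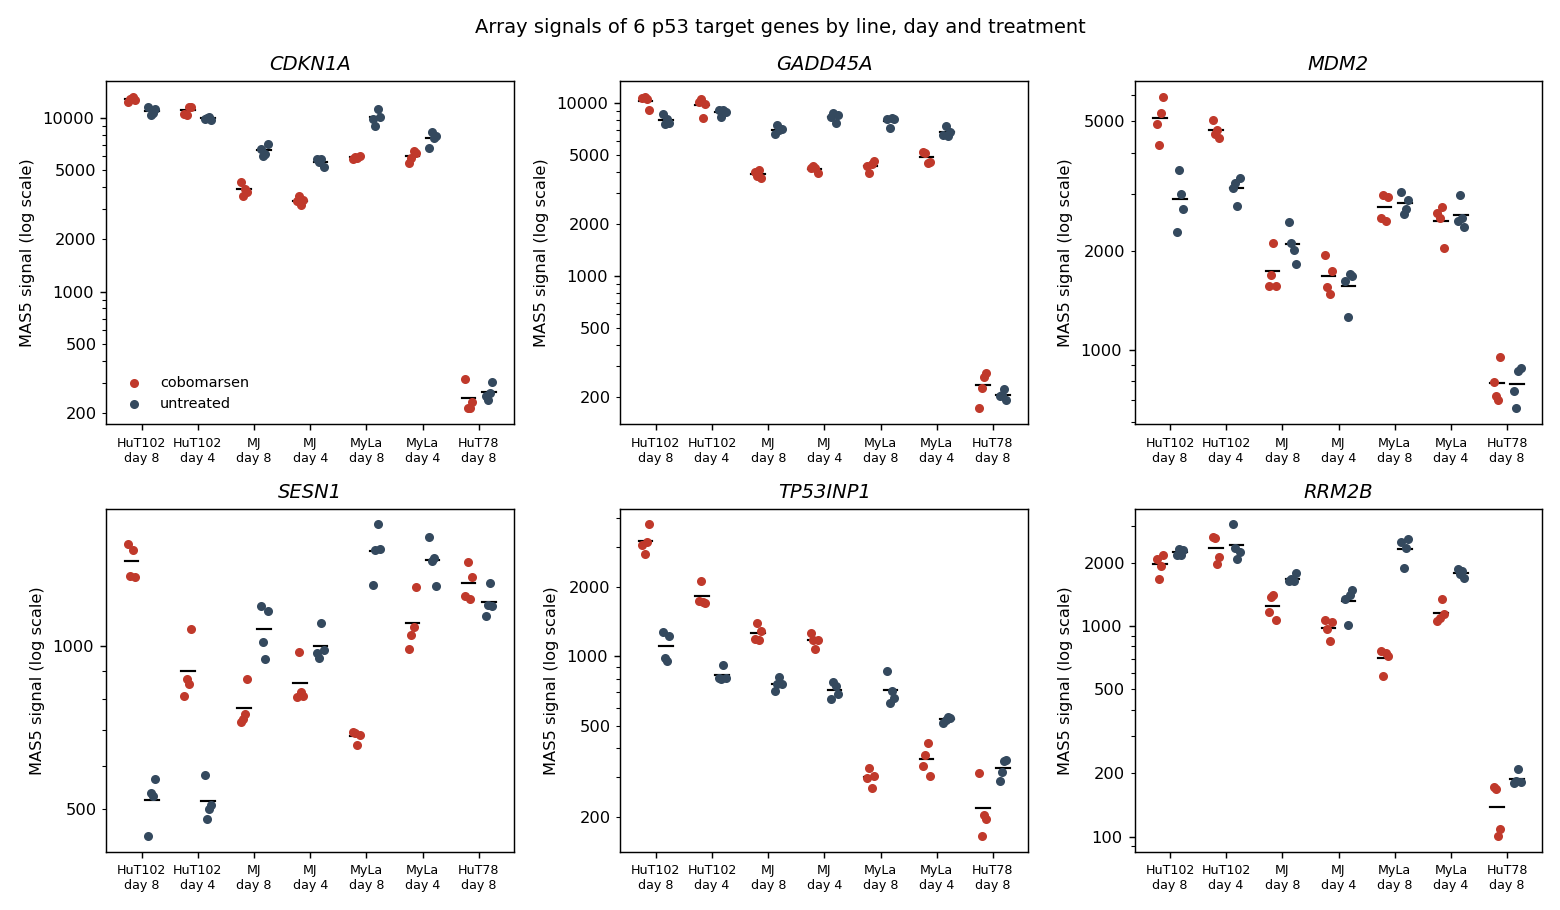
MAS5 signal (log scale) on each array for CDKN1A, GADD45A, MDM2, SESN1, TP53INP1 and RRM2B, with cobomarsen in red at the left and untreated in dark blue at the right of each line and day. Points are arrays and black bars are means of 4. The HuT78 points lie below all others for CDKN1A, GADD45A, MDM2 and RRM2B, and the treated points of SESN1 lie above the untreated ones in HuT102 and below them in MyLa.

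In the metabolism and stress group, 5 of the 8 members tested in HuT102 at day 8 were higher and none lower, in MJ 1 of 8 was higher and 6 lower, and in MyLa none of 7 was higher and 6 were lower. Over all genes tested, 19.0% were higher and 21.2% lower in HuT102, 15.1% and 18.6% in MJ, and 23.5% and 18.3% in MyLa. The member counts include GDF15 in HuT102 and MJ, where the filter fixed the direction of its call. SESN1 had 1546, 1348, 1508 and 1339 with cobomarsen in HuT102 at day 8, against 446, 536, 528 and 568 without, a 2.71-fold higher mean (limma adjusted p = 9.38e-19). In MyLa it had 694, 692, 657 and 685 with cobomarsen, against 1298, 1506, 1678 and 1511 without, a 2.16-fold lower mean (1.53e-14). In MJ the change was -0.47 ± 0.09. The treated and untreated arrays were apart in all 3 lines. In HuT78 the SESN1 change of 0.11 ± 0.09 did not pass and the groups overlapped. Untreated SESN1 means at day 8 were 1205 in HuT78 and 1077 in MJ, which did not differ by the test. SESN2, the paralog of SESN1, was called once, lower in MJ at day 4 (-0.76 ± 0.19).

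TP53INP1 (chr8:94925972-94949378), a stress protein that promotes p53 phosphorylation and autophagy and a published target of miR-155, was higher in both HTLV-1 lines and lower in the other 2. In HuT102 at day 8 it had 3053, 2786, 3123 and 3745 with cobomarsen, against 1279, 983, 957 and 1229 without (1.50 ± 0.12). MJ at day 8 had 1186, 1399, 1184 and 1289 with cobomarsen, against 711, 760.2, 811 and 757 without (0.72 ± 0.12). In MyLa at day 8 it had 295, 328, 268 and 302 with cobomarsen, against 866, 626, 707 and 657 without (-1.21 ± 0.12). None of these groups overlapped. In HuT78 it had 311, 166, 205 and 198 with cobomarsen, against 289, 317, 351 and 354 without (-0.57 ± 0.12). There treated array 1 lay within the untreated range, and the call was lost on the HuT78 arrays alone, like every HuT78 call of a member. The difference of the day 8 effects, MJ minus MyLa, was 1.93 ± 0.17 (limma adjusted p = 1.34e-13), and in MJ it was the metabolism member that rose while 6 others fell. HTLV-1 status and the block of title numbers part the lines in the same way, and the 2 cannot be told apart.

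DRAM1 averaged 3709 ± 171 with cobomarsen and 2670.3 ± 124 without in HuT102 at day 8 (0.47 ± 0.10). In MJ it had 1379.8, 1549.9, 1581 and 1421 with cobomarsen, against 3436, 3553, 3351 and 3525 without (-1.22 ± 0.10), and in MyLa its change was -1.09 ± 0.10. The groups were apart in each of these lines. TP53I3, a quinone oxidoreductase-like enzyme, was higher in HuT102 at day 8 with overlapping groups (0.38 ± 0.10), lower in MJ (-0.59 ± 0.10) and lower in MyLa (-0.92 ± 0.10). TIGAR, which lowers the flux through glycolysis, changed by 0.02 ± 0.05 in HuT102 at day 8 and did not pass there. In MyLa it was lower at both days (-0.50 ± 0.05 at day 8 and -0.33 ± 0.05 at day 4), as in MJ, where the day 8 change was -0.58 ± 0.05, and in HuT102 at day 4 it was slightly lower (-0.16 ± 0.05).

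GDF15, a secreted stress cytokine, was near the filter and is given by signals. In HuT102 at day 8 it had 205, 134, 152 and 146 with cobomarsen, against 55.7, 21.1, 68.9 and 67.3 without. MJ at day 8 had 59.2, 71.3, 58.5 and 18.9 with cobomarsen, against 279, 243, 225 and 269 without. Both differences were called, in opposite directions and with no overlap, and in each line the lower group averaged below the filter. GDF15 was tested there only through its higher group, so the filter fixed the direction of each of these calls. ACER2, a Golgi ceramidase, was lower in MJ (-0.53 ± 0.17) and MyLa (-0.68 ± 0.17) at day 8 and in HuT102 at day 4 (-0.47 ± 0.17).

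Of the 5 repair genes tested, 1 was lower in HuT102 at day 8, 3 in MJ and 4 in MyLa, with none higher in these lines. In HuT78 2 were lower and 1 higher. Over all genes tested, 21.2% were lower and 19.0% higher in HuT102, and 18.6% and 15.1% in MJ. These shares were 18.3% and 23.5% in MyLa and 11.4% and 10.7% in HuT78. The group is small, and its difference from all genes was not tested. DDB2 (chr11:47214454-47239217) is the sensor of ultraviolet damage whose promoter element is printed above. It was the 1 member of 26 called lower in all 6 comparisons of HuT102, MJ and MyLa, as 0.963% of all genes were. At day 8 it had 4806, 5014, 5251 and 4795 with cobomarsen in HuT102, against 6885, 5818, 6619 and 7279.9 without (-0.42 ± 0.08). In MJ it had 3158, 3056, 3413 and 3641 with cobomarsen, against 4998, 5148, 5281 and 5311 without (-0.64 ± 0.08), and in MyLa 5228, 5639, 5788 and 5363 with cobomarsen, against 8997, 9170.4, 10114 and 8938 without (-0.75 ± 0.08). The treated arrays were below the untreated ones in each line. In HuT78 the means were 2199 ± 300.3 with cobomarsen and 2035 ± 216 without, and the groups overlapped.

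RRM2B fell most in MyLa at day 8. It had 761, 578, 747 and 719 with cobomarsen, against 2514, 1889.7, 2351 and 2580.0 without, 3.27-fold lower, while in HuT102 the groups overlapped (-0.20 ± 0.13). In MJ its change was -0.43 ± 0.13 at day 8 and in HuT78 -0.45 ± 0.13, both called. XPC, the damage sensor of nucleotide excision repair, was lower in MJ and MyLa at both days (day 8 changes of -0.58 ± 0.08 and -0.47 ± 0.08). In HuT102 it was lower at day 4 (-0.30 ± 0.08), and at day 8 the change of 0.16 ± 0.08 did not pass. RPS27L, a ribosomal protein paralog, was lower in MyLa at day 8 (-0.43 ± 0.10) and higher in HuT78 (0.31 ± 0.10). POLH was called in HuT78 alone (-0.54 ± 0.14), with overlapping groups.

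Of the cell death members at day 8, 3 of 9 tested were lower and none higher in HuT102, and 3 of 7 were lower and 1 higher in MJ. In MyLa 2 of 6 were lower and none higher, and in HuT78 2 of 7 were lower and 1 higher. Over all genes tested, 21.2% were lower and 19.0% higher in HuT102, and 18.6% and 15.1% in MJ. These shares were 18.3% and 23.5% in MyLa and 11.4% and 10.7% in HuT78. The group is small, and its difference from all genes was not tested. AEN, a nuclease that acts in apoptosis and another gene with a promoter element printed above, was lower in HuT102 (-0.60 ± 0.11 at day 8 and -0.34 ± 0.11 at day 4), in MJ (-0.86 ± 0.11 and -0.47 ± 0.11) and in MyLa at day 4 (-0.66 ± 0.11). TRIAP1, a small protein that protects from apoptosis, was lower in MJ (-0.67 ± 0.08) and MyLa (-0.62 ± 0.08) at day 8 and higher in HuT78 (0.33 ± 0.08). APAF1, the scaffold of the apoptosome, ran against most members. In MJ at day 8 it had 492, 631, 561 and 553 with cobomarsen, against 407, 372, 369 and 430.1 without (0.48 ± 0.12), and in HuT102 408, 342, 303 and 397 with cobomarsen, against 419.6, 544, 531 and 515 without (-0.46 ± 0.12). It was therefore higher in MJ and lower in HuT102, both with no overlap.

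The initiator caspase gene CASP8 was lower at day 8 in HuT102 (-0.37 ± 0.13), in MyLa (-0.39 ± 0.13) and in HuT78 (-0.50 ± 0.13), and its MJ change of 0.20 ± 0.13 did not pass. CYFIP2, a subunit of the WAVE actin complex, was lower in MJ at both days (-0.53 ± 0.07 at day 8 and -0.38 ± 0.07 at day 4) and in MyLa at day 4 (-0.21 ± 0.07) on the probe set used. Another of its probe sets was called higher in MJ at day 4 (0.34) and in MyLa at day 8 (0.70) and day 4 (0.54), so that CYFIP2 has no single direction. PHLDA3, an inhibitor of AKT, the receptor EDA2R and both decoy receptors were called in no treatment comparison on the probe sets used. Another probe set of PHLDA3 was higher in HuT102 at day 8 (0.91).

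The day 8 effect differed between lines for many members. The 4-line test passed for 23 of 27 members tested, and for 64.7% of all genes. The effect in HuT102 minus that in MJ was above 0 for 19 of 30 members and below 0 for 2 (median 0.63, with 28.0% of all genes called, 14.1% above 0 and 13.9% below). HuT102 minus MyLa it was above 0 for 17 of 27 and below 0 for 2 (median 0.60, with 38.8% of all genes called, 17.2% above 0 and 21.6% below). MJ minus MyLa it was above 0 for 6 of 27 and below 0 for 4 (median 0.02, with 33.6% of all genes called, 14.3% above 0 and 19.3% below), a share close to that of all genes. The first pair of differences share the HuT102 arrays and were chosen after the line effects had been seen.

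At day 8, 6 of 26 members were called higher in HuT102 and lower in both MJ and MyLa, against 1.02% of all genes. They were CDKN1A, GADD45A, ZMAT3, SESN1, DRAM1 and TP53I3. They were chosen by calls in opposite directions, so the differences of their effects are given as a description with no test. HuT102 minus MJ, these were 0.97 ± 0.11, 1.22 ± 0.12, 0.75 ± 0.13, 1.92 ± 0.13, 1.69 ± 0.14 and 0.97 ± 0.14 in that order. HuT102 minus MyLa they were 0.98 ± 0.11, 1.21 ± 0.12, 1.68 ± 0.13, 2.55 ± 0.13, 1.57 ± 0.14 and 1.30 ± 0.14. At day 8, 13 of 26 members were lower in both MJ and MyLa, against 6.26% of all genes. In these lines 10 of 26 were lower at both days, against 2.44% of all genes, and these were CDKN1A, GADD45A, FBXO22, ZMAT3, TIGAR, DRAM1, XPC, DDB2, RRM2B and TRIAP1. In HuT102, 5 of 30 members were higher at both days, against 8.48% of all genes, and these were CCNG1, MDM2, PLK2, SESN1 and TP53INP1, while AEN and DDB2 were lower at both days, against 10.4% of all genes.

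**Figure D5:**
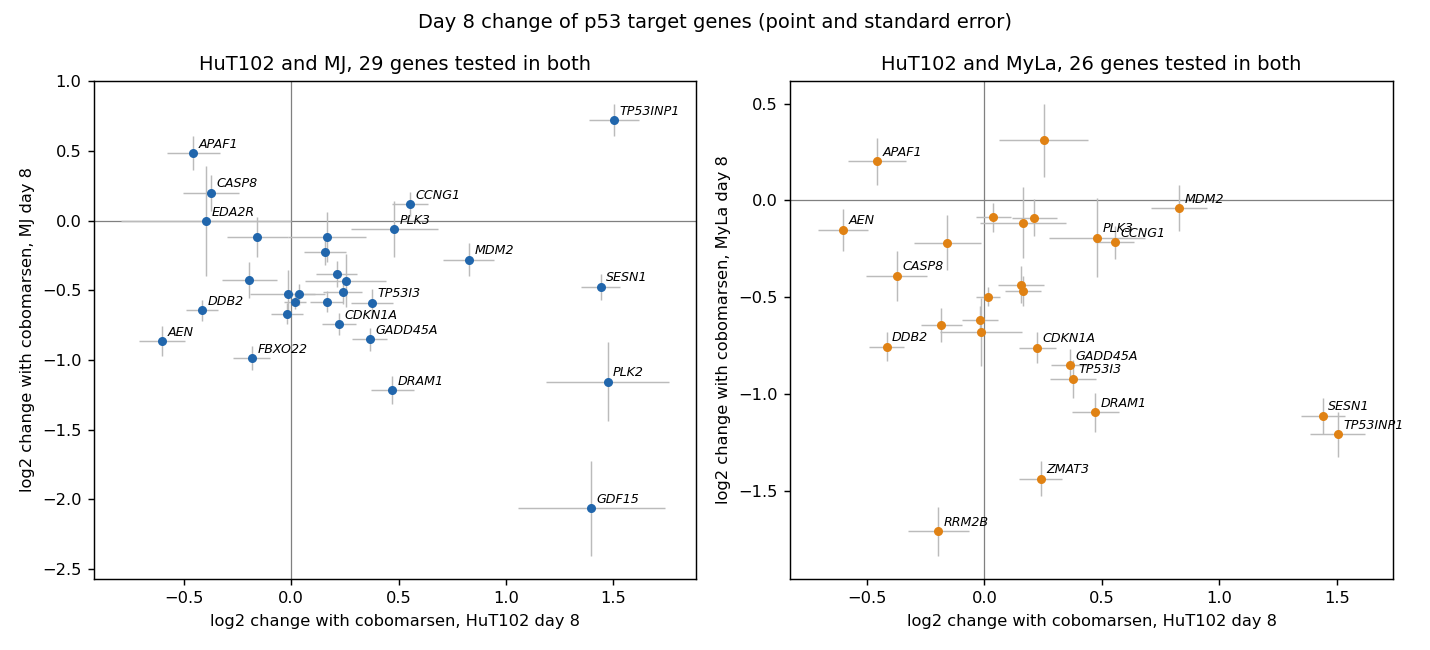
Log2 change with cobomarsen at day 8 in HuT102 (horizontal) against that in MJ (left panel, 29 genes) and in MyLa (right panel, 26 genes), with bars for standard errors. SESN1 and DRAM1 lie at the lower right of both panels, and TP53INP1 lies at the upper right of the MJ panel and the lower right of the MyLa panel.

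The effect differed between days mainly in MyLa. There the day 8 effect minus the day 4 effect was called for 12 of 26 members, 2 above 0 and 10 below, with 17.0% of all genes called (9.60% above 0, 7.43% below). RRM2B differed by -1.08 ± 0.18, with means of 701 ± 83.8 with cobomarsen and 2334 ± 311 without at day 8, and of 1157 ± 134 with cobomarsen and 1792 ± 76.6 without at day 4. ACER2 (-0.80 ± 0.25), ZMAT3 (-0.74 ± 0.13), SESN1 (-0.73 ± 0.13), CASP8 (-0.69 ± 0.18) and TP53INP1 (-0.64 ± 0.17) also had lower effects at day 8 than at day 4. CCNG1 (-0.43 ± 0.12), CDKN1A (-0.42 ± 0.11), GADD45A (-0.37 ± 0.12) and DDB2 (-0.33 ± 0.11) completed these 10. Of them, ACER2, CASP8 and CCNG1 were not called at day 4 in MyLa, so that their fall was called at day 8 alone. SESN2 (0.75 ± 0.27) and AEN (0.51 ± 0.15) had effects less far down or higher at day 8.

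In HuT102 the day effects differed for 2 of 31 members, or 6.45%, with 7.20% of all genes called (3.24% above 0, 3.96% below). Both differences were above 0, at 0.66 ± 0.13 for SESN1 and 0.47 ± 0.11 for XPC. SESN1 was higher at both days, while XPC was lower at day 4 and not called at day 8. In MJ no member of 29 passed by limma, and 6 had an unadjusted p under 0.05, with 1.35% of all genes called (0.377% above 0, 0.972% below).

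Some members also moved in untreated cells. In MyLa, 5 of 27 were higher at day 8 than at day 4 and none lower by limma (1 lower at an unadjusted p under 0.05), with 13.1% of all genes called (6.60% higher, 6.49% lower). These were CDKN1A (0.40 ± 0.08), PPM1D (0.42 ± 0.10), RRM2B (0.37 ± 0.13), TIGAR (0.34 ± 0.05) and TP53INP1 (0.40 ± 0.12). The untreated CDKN1A mean in MyLa was 10062 ± 931 at day 8 and 7628 ± 700.0 at day 4, while the treated mean was 5917 ± 99.5 at day 8 and 6022 ± 402 at day 4. The larger day 8 effect on CDKN1A in MyLa thus came with a higher untreated level, while the treated means lay close together, a difference that was not tested. In HuT102, 2 of 31 were higher, CASP8 (0.46 ± 0.13) and TP53INP1 (0.40 ± 0.12), and 3 lower, FBXO22 (-0.30 ± 0.09), TIGAR (-0.21 ± 0.05) and GDF15 (means of 53.3 at day 8 and 118 at day 4), with 8.70% of all genes called (4.58% higher, 4.11% lower). The GDF15 mean at day 8 was below the filter, so the filter fixed the direction of that call. In MJ none of 29 passed by limma, and 9 had an unadjusted p under 0.05, with 1.61% of all genes called (1.15% higher, 0.464% lower).

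HuT78 gave the least settled calls. Its 12 called members were CCNG1, FBXO22, RPS27L and TRIAP1, higher, and TP53INP1, ZMAT3, DRAM1, RRM2B, POLH, PLK3, APAF1 and CASP8, lower. The spread used for this test came from all 56 arrays. Fitted on the 8 HuT78 arrays alone, none of the 26 members tested passed by limma (8 had an unadjusted p under 0.05), and 7 of those tested did when cobomarsen array 1 was also left out, an alternative chosen after seeing the data. With all lines in the fit, leaving out that array gave 18 calls and leaving out cobomarsen array 4 gave 7. Under quantile normalization 5 were higher and 3 lower, and with the arrays set to an equal median 8 were higher and 6 lower. Of the 12, RRM2B and APAF1 were those whose groups did not overlap, with 289.6, 279.9, 203 and 273 for APAF1 with cobomarsen, against 374, 323, 360.3 and 382 without.

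Other published p53 targets, a list of 45 of which 42 had a probe set, were tested in the same fit. In MJ at day 8, 14 of 39 tested were lower and 3 higher, and in MyLa at day 8, 17 of 38 were lower and 4 higher. In HuT102 at day 8, 12 of 42 were higher and 6 lower, and in HuT78 3 of 37 were higher and 5 lower. Over all genes tested at day 8, 18.6% were lower and 15.1% higher in MJ, and 18.3% and 23.5% in MyLa. These shares were 21.2% and 19.0% in HuT102 and 11.4% and 10.7% in HuT78. At day 4, 12 of 39 were lower and 3 higher in MJ, with 14.2% of all genes lower and 13.0% higher. In MyLa at day 4, 10 of 38 were lower and 9 higher (12.9% and 13.4% of all genes). In HuT102 at day 4, 2 of 39 were lower and 10 higher (13.0% and 10.0% of all genes). In either direction, the share of the list called at day 8 was 42.9% in HuT102, 43.6% in MJ, 55.3% in MyLa and 21.6% in HuT78, beside 40.1%, 33.6%, 41.7% and 22.0% of all genes tested. TRIM22, an antiviral protein, was lower in MyLa (-1.96 ± 0.09) and MJ (-1.53 ± 0.09) at day 8. NINJ1, an adhesion protein that ruptures the membrane of dying cells, was higher in HuT102 (1.25 ± 0.09). BAX, the pore-forming mediator of apoptosis, was lower in HuT102 at day 8 with overlapping groups (-1.04 ± 0.34).

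Of 15 regulators of p53 listed, 13 had a probe set. HIPK2, a kinase that phosphorylates p53, had untreated day 8 means of 10713 in HuT102, 4774 in MJ and 12100.4 in MyLa, against 259 in HuT78, where it was scarce. CDKN2A, whose locus encodes the MDM2 antagonist ARF, had untreated means of 698 in HuT102 and 1569 in MJ, while in MyLa and HuT78 it had 41.0 and 56.1, below the filter. With cobomarsen, the checkpoint kinase gene CHEK1 was lower (-1.08 ± 0.12) and the coactivator gene EP300 higher (0.92 ± 0.17) in HuT102 at day 8. CHEK1 was also lower in MJ at day 8 (-0.41 ± 0.12), with overlapping groups, and higher in MyLa at day 8 (0.45 ± 0.12). BRD7 was higher in MJ at day 8 (0.49 ± 0.06), and MDM4 was lower in HuT78 (-1.08 ± 0.22) with overlapping groups. ATM was higher in HuT102 (0.42 ± 0.16) and lower in MyLa (-0.60 ± 0.16) at day 8. In HuT78 ATM was lower (-0.77 ± 0.16) with overlapping groups. At day 8 the regulators called were 3 higher and 3 lower of 13 tested in HuT102, 2 and 2 of 13 in MJ, 3 and 1 of 11 in MyLa, and 0 and 3 of 11 in HuT78, or 46.2%, 30.8%, 36.4% and 27.3% of those tested in these lines. Over all genes tested these shares were 40.1%, 33.6%, 41.7% and 22.0%. The regulators' shares were thus near those of all genes, and below them in MJ and MyLa, and the difference was not tested.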

How the data were processed

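The authors' deposited values are intensities, linear MAS5 signals from Affymetrix arrays, 1 column for each of 56 arrays, made with MAS5 per the submitters' processing notes. They were scaled to a common mean, 500.06 to 500.08 after trimming 2% at each end. No version or background setting is given in the sources used here. Of 54675 probe sets, 41091 had 1 gene symbol in the platform annotation, for 19775 genes, and each gene was represented by its brightest probe set on average. Signals became log2(signal + 16), which understates changes of low genes. R 4.3.3 and limma 3.58.1 fitted 14 group means to all 56 arrays (42 residual degrees of freedom, intensity trend), and p-values were adjusted over all genes tested at mean signals of 74.0 or above. The fit was tested on data simulated for the MJ day 8 comparison, with the same spread in every group for a gene. That simulation cannot show how the fit behaves where the spread differs between lines. The number of arrays limits the precision. Members, roles and lists were chosen with earlier results of these data known. All members could be named, regulators by a fixed list, and up to 4 called genes of the list of other targets per comparison. Alternatives covered the pseudocount, filter, scaling, probe set rule, trend, arrays fitted and each array left out.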

Additional observations from a re-analysis of the deposited data

Results flagged for a closer look

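Array signals were searched in groups of 4 for an array whose gap to its nearest neighbour exceeded 0.829 of the group's range. Of 393 groups 22 had one, or 5.60%, where chance gives about 1 in 20 groups. In MJ at day 4, untreated cells had 7 of them. Signals that stood apart were 1261 for MDM2, 3935 for TP53I3, 219 for GDF15, 734 for SESN2, 87.0 for PLK2 and 258 for APAF1, each the lowest of its group, and AEN was highest at 2184. In treated MJ cells at day 4 SESN1 was highest at 977, SESN2 at 641 and TRIAP1 at 3923, and DRAM1 was lowest at 1275. In treated HuT102 cells TP53INP1 was highest at 2124, PPM1D lowest at 1877 and TRIAP1 lowest at 5590.4 at day 4, and GADD45A lowest at 9084 at day 8. In untreated HuT102 cells at day 4 TP53INP1 was highest at 921. PHLDA3 was lowest at 95.8 in treated MyLa cells at day 4. In untreated MyLa cells GADD45A was lowest at 7124 and CYFIP2 at 4709.5 at day 8, and POLH was highest at 595 at day 4. In HuT78 APAF1 was lowest at 203 in treated cells and RRM2B highest at 208 in untreated cells.

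The day 8 effect of cobomarsen differed between the 4 lines, by the limma test over lines, for 23 members. Among arrest and feedback genes the adjusted p was 1.3e-11 for CDKN1A, 3.63e-15 for GADD45A, 7.8e-07 for MDM2, 0.00797 for PLK3, 0.000159 for PPM1D, 3.36e-06 for CCNG1, 9.14e-13 for FBXO22 and 1.66e-14 for ZMAT3. Among metabolism and stress genes it was 9.1e-22 for SESN1, 0.0399 for SESN2, 1.03e-13 for TIGAR, 9.77e-12 for TP53I3, 1.06e-19 for TP53INP1 and 4.49e-15 for DRAM1. Among repair genes it was 2.95e-09 for DDB2, 7.34e-10 for RRM2B, 1.71e-05 for RPS27L and 1.95e-07 for XPC. Among cell death genes it was 7.97e-05 for AEN, 2.7e-06 for APAF1, 0.00316 for CASP8, 3.49e-06 for CYFIP2 and 3.24e-12 for TRIAP1.

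The log2 effect at day 8 minus that at day 4 passed the limma test in HuT102 for SESN1 (0.66) and XPC (0.47). In MyLa it passed for RRM2B (-1.08), ACER2 (-0.80), ZMAT3 (-0.74), SESN1 (-0.73), CASP8 (-0.69), TP53INP1 (-0.64), CCNG1 (-0.43), CDKN1A (-0.42), GADD45A (-0.37), DDB2 (-0.33), AEN (0.51) and SESN2 (0.75).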

How the results depend on the processing

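The counts of members called in HuT102, MJ and MyLa with cobomarsen stayed within 1.5 times under every alternative run. Leaving out 1 array gave 13 to 16 calls in HuT102 at day 8 and 9 to 11 at day 4, 19 to 21 in MJ at day 8 and 15 to 18 at day 4, 15 to 17 in MyLa at day 8 and 14 to 16 at day 4, and 7 to 18 in HuT78. For day differences of the effect it gave 2 to 3 in HuT102, 0 to 0 in MJ and 10 to 13 in MyLa, and for untreated day 8 against day 4 it gave 2 to 5, 0 to 1 and 4 to 6 in those lines. HuT78 gave 6 calls with the mean of all probe sets and 0 on its own arrays. The HuT102 day difference gave 4 with log2(value + 64) and 6 on its own arrays, and the MJ day difference 1 on its own arrays. Untreated HuT102 gave 3 with the mean of all probe sets, and untreated MJ gave 1 with log2(value + 64), 1 with a filter at the 75th percentile and 3 on its own arrays. The cause was not tested, except that fewer arrays entered where a line was fitted alone.

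With the mean of all probe sets the sign turned for CYFIP2 in MyLa at day 4 (0.17), FBXO22 in HuT78 (-0.018) and FBXO22 in the effect of MJ minus MyLa (0.23), and in untreated cells for PPM1D in HuT102 against HuT78 (-0.11) and MJ against HuT78 (-0.027) and for CYFIP2 in MyLa against HuT78 (-0.032). Of 1601 alternative values for 95 called changes in HuT102, MJ and MyLa, 1538 kept direction and call, 62 lost the call and 1 turned. Of 209 values for the 12 calls in HuT78, 157 kept both, 51 lost the call and 1 turned. No paired analysis was possible because no replicate number in the labels is shared between groups, and the serial numbers in the titles differ on every array. Signal over background limits GDF15, PLK2, EDA2R and the decoy receptors.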

Other observations

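Among the further p53 targets outside the set, E2F7, a repressor of cell cycle genes, was lower in MJ (-1.39 ± 0.08 at day 8 and -1.02 ± 0.08 at day 4). RRAD, a small GTPase that restrains glucose uptake, was lower in MJ at day 8 (-1.39 ± 0.32). DDIT4, an inhibitor of mTOR signalling, was lower at day 8 in HuT102 (-1.07 ± 0.13), in MJ (-0.55 ± 0.13) and in MyLa (-1.04 ± 0.13), and higher in MyLa at day 4 with overlapping groups (0.49 ± 0.13). TP53I11 was lower in HuT102 at day 8 (-1.37 ± 0.36), and ANKRA2 was lower in MyLa at day 8 (-1.01 ± 0.13).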
